A study of Mus musculus with 36 samples.

Results

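Progeny of Lgr5+ hair follicle (HF) stem cells of mouse tail skin were compared at 4 weeks after a first wound (4w pw1, 3 libraries) and in unwounded skin (0w, 3 libraries), across all genes. These 6 libraries were chosen by population and time point from the 36 in the series, which followed Lgr5 and Lrig1 lineages at 6 time points. The Lgr5 lineage has 18 libraries, 3 at each time point. Genes were called higher or lower at a Benjamini-Hochberg adjusted p under 0.05 in edgeR's quasi-likelihood test with a log2 fold change above 1 in size. Levels are in CPM, a count divided by the TMM-scaled total of its library and put on a common scale, and the 3 libraries of a group are written a, b and c.

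All mice of both groups carried Lgr5-EGFP-ires-CreERT2 and Rosa26-fl/STOP/fl-tdTomato. Hydroxytamoxifen was applied once to the tail, so that cells in which the Lgr5 promoter drove the Cre, and all their descendants, kept tdTomato. This genetic label (genetic labelling, GL) marks descent and not present Lgr5 expression. The first wound was a full-thickness 2 mm punch of the tail, made 1 week after labelling in mice aged 7 to 9 weeks. Sorted tdTomato+ cells came from skin that held the wound bed and the HFs at a distance from it, so that repairing and distant cells were pooled in each library. Each library was a mini-bulk of few cells, and spread from the sampling of cells was not separated from other spread. The 0w mice were labelled and not wounded. The 4w pw1 mice were 4 weeks older and 4 weeks further from labelling than the 0w mice, and no unwounded group of that age was analysed here. Wounding, age, hair cycle stage and time since labelling therefore cannot be told apart in this comparison.

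Lgr5 marks stem cells of the lower bulge and the hair germ, the parts of the resting HF from which a new hair is made. Bulge cells express Krt15, Cd34, Lhx2 and Sox9, hold on to a basement membrane through hemidesmosomes, and are kept at rest by BMP signals and by secreted Wnt inhibitors. When a HF grows, germ cells form a proliferating matrix whose descendants build the hair shaft and, around it, the inner root sheath, each with its own set of keratins. After injury, bulge progeny can also leave the HF and join the epidermis.

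Of 18025 genes tested, 28 were called between 4w pw1 and 0w, which is 0.155% of all genes. Of these, 9 were higher at 4w pw1 (0.0499% of genes tested) and 19 were lower (0.105%). The keratins Krt28 and Krt87, of the inner root sheath and the hair shaft, and the cell cycle gene Ccnd1 were among the genes that rose. Krt15, the most abundant bulge keratin, fell from a mean of 16189 ± 2473 to 3368 ± 991 CPM (SD, n = 3 in each group), and Dkk3, Bmp2, Col17a1, Lamb3 and Dst fell with it. An unadjusted p under 0.05 was reached by 1936 genes, 10.7% of those tested. In all 28 genes the libraries of the groups did not overlap. Over all genes tested, 6.62% lay above and 7.79% lay below the 0w libraries in every 4w pw1 library, and the median log2 fold change was -0.00494. Leaving out 1 library left 28 calls without 0w library c, 17 of them among the 28, and 5 to 11 calls without any of the other 5, while DESeq2 called 271. The DESeq2 calls were 145 higher and 126 lower, and the 268 calls of a likelihood ratio test were 142 higher and 126 lower. No gene of the 28 changed direction in any of these fits, but leaving out a library could hardly reverse groups that do not overlap. Krt28 and Krt15 were called whichever library was left out. Of the other genes named above, Ccnd1 was called in 0 of those 6 fits and the rest in 1 to 5. Of the remaining called genes, given below, Nav2 and Tshz3 were called in 0 of the 6 fits. Slc7a11 and Tgfbi were called in 2 and each of the others in 1.

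Depth differed between the groups. The 0w libraries held 3775424 to 5270132 counts and the 4w pw1 libraries 1297798 to 2116933 (exact two-sided permutation test, p = 0.1, the smallest p that 3 against 3 allows). A level of 3 counts, taken as the floor below which a gene cannot be told from absent, was 0.623 to 1.03 CPM at 0w and 1.26 to 2.92 CPM at 4w pw1. A single transcript, Gm12415, took 29.0% to 45.4% of the counts at 0w and 28.5% to 52.1% at 4w pw1. Library c at 0w and library a at 4w pw1 stood apart from their groups, with correlations of log2 CPM across genes of 0.776 and 0.779, and of 0.757 and 0.727, with the other two of the group, against 0.857 and 0.854 between those. Keratinocyte markers summed to 29729 to 36814 CPM at 0w and 12871 to 16408 CPM at 4w pw1, and immune cell markers to at most 26.4 CPM in any library. The immune sum rests on Ptprc, Cd74 and Cd68 alone, since the other 9 of the 12 listed markers were not analysed here. The keratinocyte list holds Krt15, whose own fall makes up much of the lower keratinocyte sum. Log2 fold changes were negative in 8 of the 10 tested keratinocyte markers, while Krt14 overlapped between the groups. Fibroblast markers summed to 536 to 723 CPM at 0w and 183 to 237 CPM at 4w pw1, with negative log2 fold changes in 7 of 9 tested members and Col6a1 called, while Lum had no count in any of the 6 libraries. Whether fibroblast RNA had a part in the genes that fell was not tested. Here, as in any sum over cells, fewer cells of a type and less RNA per cell cannot be told apart.

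**Figure D1:**
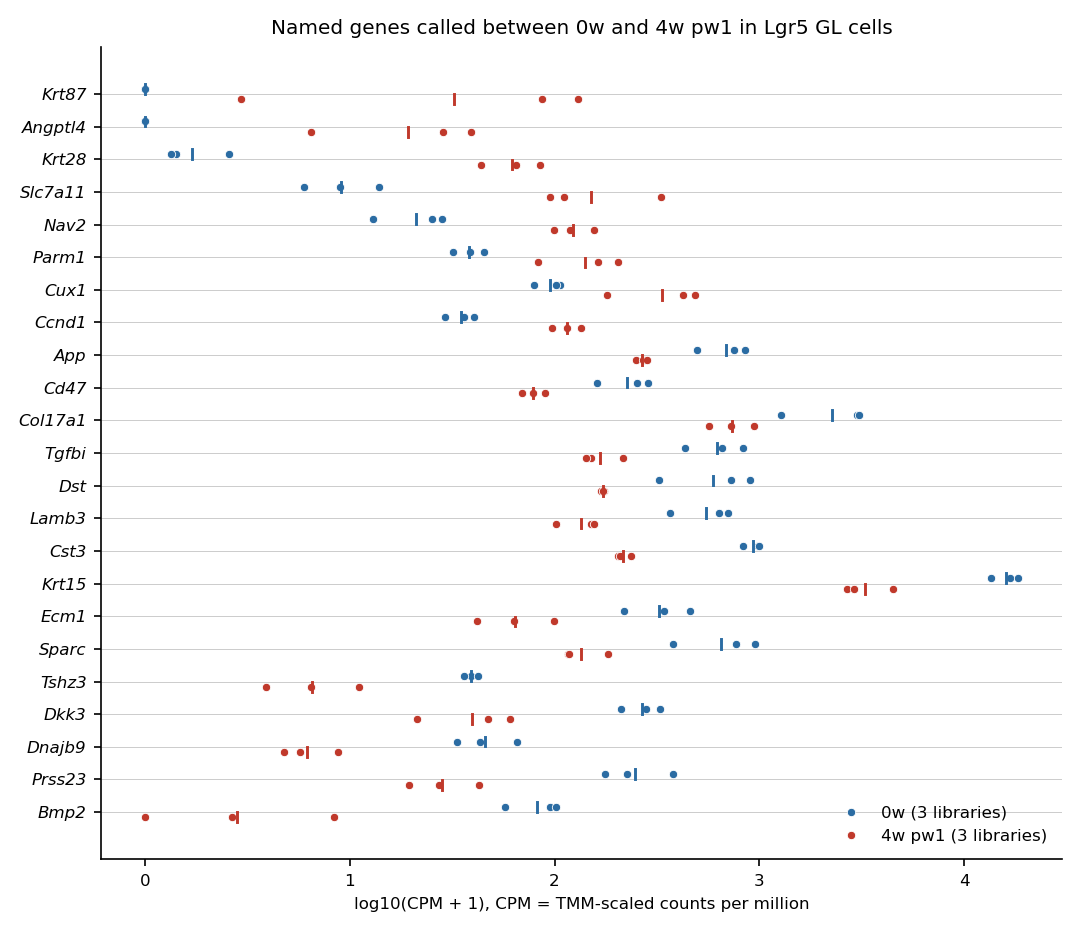
Levels of the 23 named genes that passed the test between 0w (blue) and 4w pw1 (red) in Lgr5 GL cells, as log10(CPM + 1). Each point is 1 library, the short bars are group means, and the groups do not overlap for any of the 23 genes; Krt87 and Angptl4 had no count in any 0w library.

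The inner root sheath, the sleeve of cells that moulds and guides the growing hair, included the gene that rose with the smallest p. Krt28, a type I keratin of that sheath (chr11:99364872-99374903 of GRCm38, minus strand), was at 1.59, 0.415 and 0.345 CPM at 0w and at 42.8, 63.7 and 84.0 CPM at 4w pw1. It was close to the floor in every 0w library, with 7, 2 and 1 counts, and far above it in every 4w pw1 library. The log2 fold change was 6.25 (SE 0.79, adjusted p = 0.0034). Cux1, a homeodomain factor expressed in this sheath, rose from 78.7, 106 and 101 CPM to 179.9, 485 and 425 CPM (log2 fold change 1.94, SE 0.37, adjusted p = 0.0465).

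Of the 15 inner root sheath genes listed, 13 were tested, 2 rose (Krt28 and Cux1) and none fell. Log2 fold changes were positive in 12 of the 13, with a median of 3.01, against 49.6% positive and a median of -0.00494 over all genes tested. Krt25 was at 33.4, 7.89 and 0.345 CPM at 0w and at 121, 665 and 146 CPM at 4w pw1. Krt73 was at 6.81, 1.66 and 1.03 CPM and then at 36, 50.7 and 135 CPM. Both lay above every 0w library in every 4w pw1 library, but neither passed the test (log2 fold change 4.47, SE 1.16, adjusted p = 0.149 for Krt25 and 4.51, SE 1.15, adjusted p = 0.145 for Krt73). Krt71 overlapped between the groups, because 0w library a stood at 278 CPM against 14.3 and 4.83 CPM in the others. Its 4w pw1 libraries stood at 242, 2600 and 256 CPM (log2 fold change 3.38, SE 1.20, adjusted p = 0.319). Gata3, a factor that specifies the sheath, was at 136 to 178 CPM at 0w and at 106 to 136 CPM at 4w pw1 and was the member with a negative value.

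Promoters of 4 of these keratins are shown because they are neighbours in the keratin clusters of chromosomes 11 and 15 and their transcripts were low in most 0w libraries. Each runs 5′ to 3′ from 250 bases before to 50 bases after the RefSeq start site on GRCm38.p6, all on the minus strand. Krt25 is chr11:99322902-99323201, Krt28 is chr11:99374854-99375153, Krt71 is chr15:101743048-101743347 and Krt73 is chr15:101802311-101802610. Capitals mark the TATA box letters TATAAA, the letters CTTTGAA that TCF/LEF factors bind and their variant CTTTGTT, wherever they occurred on either strand.
Krt25: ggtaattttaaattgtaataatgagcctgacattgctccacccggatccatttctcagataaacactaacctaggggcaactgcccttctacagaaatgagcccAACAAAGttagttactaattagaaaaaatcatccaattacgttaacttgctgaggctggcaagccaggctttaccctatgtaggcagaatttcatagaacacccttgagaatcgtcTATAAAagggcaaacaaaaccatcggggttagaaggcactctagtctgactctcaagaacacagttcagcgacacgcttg
Krt28: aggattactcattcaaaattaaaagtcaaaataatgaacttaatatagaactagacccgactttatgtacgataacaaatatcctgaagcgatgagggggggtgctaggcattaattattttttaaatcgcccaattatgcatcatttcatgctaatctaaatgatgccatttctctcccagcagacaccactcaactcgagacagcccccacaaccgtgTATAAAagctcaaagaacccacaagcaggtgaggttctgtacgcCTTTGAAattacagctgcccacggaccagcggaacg
Krt71: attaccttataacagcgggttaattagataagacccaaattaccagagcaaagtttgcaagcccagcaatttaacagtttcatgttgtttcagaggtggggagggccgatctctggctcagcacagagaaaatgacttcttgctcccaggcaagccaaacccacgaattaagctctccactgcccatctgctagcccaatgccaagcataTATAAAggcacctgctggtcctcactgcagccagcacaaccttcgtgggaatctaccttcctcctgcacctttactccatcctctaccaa
Krt73: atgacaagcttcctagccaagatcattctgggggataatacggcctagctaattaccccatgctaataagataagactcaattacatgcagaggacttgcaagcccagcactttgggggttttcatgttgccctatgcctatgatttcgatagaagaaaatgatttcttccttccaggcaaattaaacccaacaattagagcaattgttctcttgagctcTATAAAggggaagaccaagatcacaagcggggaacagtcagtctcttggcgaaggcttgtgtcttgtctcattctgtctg

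All 4 windows hold TATAAA upstream of the start site. It began 30 bases before the start site in Krt25, Krt28 and Krt73 and 40 bases before it in Krt71. A promoter was given for 13 of the 15 inner root sheath genes, and 9 of these 13 hold TATAAA on either strand, against 13.6% of 32851 promoters of the same length. CTTTGAA occurred 15 bases into the transcript of Krt28 and in 2 of the 13 promoters, against 5.14% of all. Of the 11 promoters given for the 20 hair shaft genes, 6 hold TATAAA and 4 hold CTTTGAA, so that neither is particular to the inner root sheath list. Of the 13 promoters given for the 20 bulge genes, 1 holds TATAAA and 0 hold CTTTGAA. These matches describe letters in the windows and no binding was measured.

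Among hair shaft genes, Krt87, a type II hair keratin on chromosome 15, had 0 counts in all 0w libraries and stood at 1.95, 129.5 and 85.4 CPM at 4w pw1. Library a of 4w pw1 was below the floor for this gene and the other two were far above it. Set against a floor of 3 counts in each 0w library, the mean at 4w pw1 was at least 92.8-fold higher (adjusted p = 0.0352). Krt87 was the sole called gene among 16 tested of the 20 listed, but 14 of the 16 had a positive log2 fold change, with a median of 2.50. Krt35, a type I hair keratin, was at 4.54, 9.34 and 0.345 CPM at 0w and at 18.5, 320 and 303 CPM at 4w pw1, and missed the threshold (log2 fold change 5.44, SE 1.12, adjusted p = 0.0676). Krt31 was at 1.36, 0.207 and 3.79 CPM and then at 7.78, 207 and 47.1 CPM (log2 fold change 5.66, SE 1.47, adjusted p = 0.151). In each of these 3 genes 4w pw1 library a was the lowest of its group, and the hair shaft list summed to 119.6 CPM there, below the 132 to 458 CPM of the 0w libraries, against up to 1282 CPM in the other two. Krt36 and Krt84 were the members with negative values, with Krt36 at 201, 0 and 151 CPM at 0w and at 3.89, 20.5 and 20.2 CPM at 4w pw1. Gm49425, a protein-coding gene in the same chromosome 15 region, had 3 counts over the 0w libraries and stood at 8.75, 90.1 and 99.5 CPM at 4w pw1 (adjusted p = 0.0333). It was named after its values were seen.

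**Figure D2:**
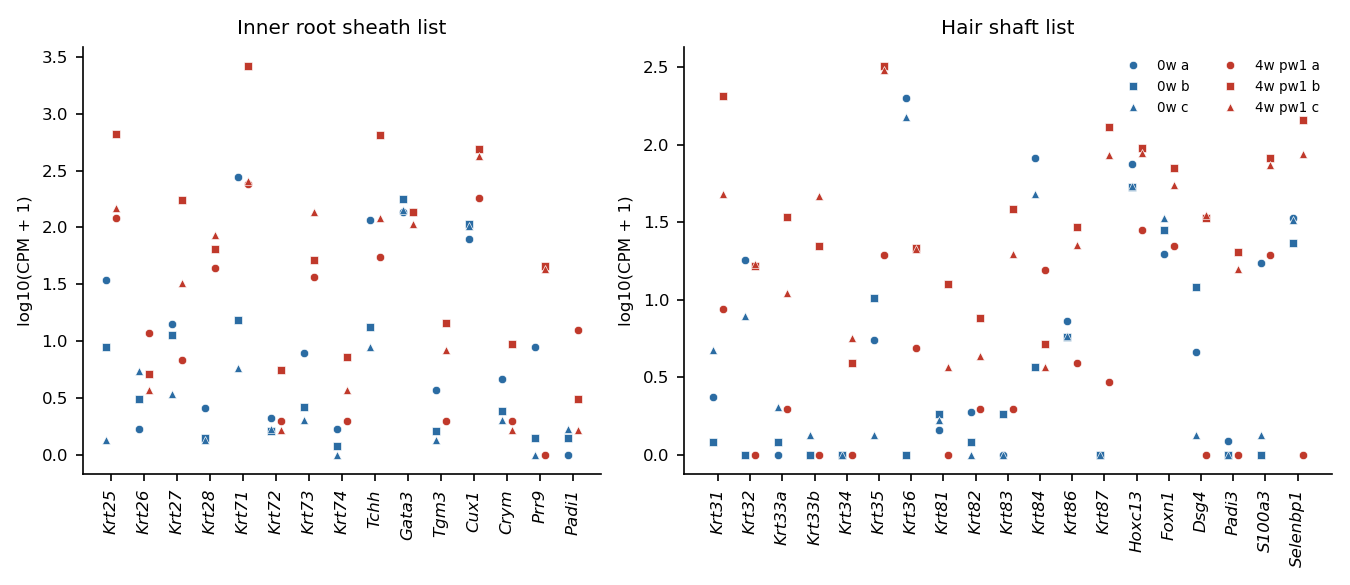
Levels of the inner root sheath list (left) and the hair shaft list (right) in each library, as log10(CPM + 1), with 0w in blue and 4w pw1 in red and the marker shape giving the library. Most keratins are highest in 4w pw1 libraries b or c, and 4w pw1 library a is at 0 for several hair shaft genes.

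The hair matrix and germ list, which holds regulators of the cells that feed the shaft and sheath, had no called member among 15 tested, with 5 at an unadjusted p under 0.05, 2 called by DESeq2 (Dlx3 and Ctsc) and 1 by limma-voom. Its log2 fold changes were positive in 12 members, with a median of 1.02. Dlx3, a homeodomain factor of the growing hair, was at 3.86, 6.43 and 0.689 CPM at 0w and at 22.4, 49.0 and 65.9 CPM at 4w pw1 (log2 fold change 3.61, SE 0.74, adjusted p = 0.0676). Ctsc, a lysosomal protease, was at 12.5, 11 and 23.4 CPM and then at 142, 171 and 88.8 CPM (log2 fold change 3.11, SE 0.72, adjusted p = 0.11). The groups did not overlap in either gene. Lef1 was at 19.97, 20.96 and 28.3 CPM at 0w and at 6.81, 45.3 and 69.9 CPM at 4w pw1, so that library a again lay lowest and the groups overlapped.

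Of 30 cell cycle genes tested, Ccnd1 rose and the list median was 0.14. Ccnd1, the D cyclin that couples growth signals to cell cycle entry, was at 28.1, 35.1 and 39.6 CPM at 0w and at 114, 96.4 and 134 CPM at 4w pw1 (log2 fold change 1.74, SE 0.31, adjusted p = 0.0319). Its call, like those of Nav2 and Tshz3, was lost whichever library of the comparison was left out. Ccnd2 was at 99.6 to 115 CPM and then at 201 to 315 CPM and did not pass. The proliferation marker Mki67 overlapped widely, at 2.95, 44.2 and 34.8 CPM at 0w and at 10.7, 47.8 and 102 CPM at 4w pw1. Pcna, the sliding clamp of DNA replication, was at 53.5 to 138 CPM at 0w and at 43.8 to 47.7 CPM at 4w pw1.

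The other named genes that rose belong to none of the hair lists. Slc7a11, the cystine transporter that feeds glutathione synthesis and an NRF2 target, was at 12.9, 4.98 and 7.93 CPM at 0w and at 329, 109.8 and 94.1 CPM at 4w pw1. All 3 libraries at 4w pw1 lay above the 0w range, with library a the highest (log2 fold change 4.36, SE 0.69, adjusted p = 0.0193). It was the sole called gene among 13 of the NRF2 list, whose median was 0.50. Angptl4, a secreted inhibitor of lipoprotein lipase, had 0 counts in the 0w libraries and stood at 37.9, 5.45 and 27.6 CPM at 4w pw1, at least 30.4-fold higher on the same floor (adjusted p = 0.0282). Parm1 rose from 30.9 to 44.4 CPM to 82.1 to 204 CPM (log2 fold change 1.98, adjusted p = 0.0465). Nav2 rose from 12.1 to 27.2 CPM to 98.5 to 155 CPM (log2 fold change 2.54, adjusted p = 0.0474).

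Among the genes that fell, the bulge came first. Krt15, the type I keratin used to mark bulge cells (chr11:100131758-100135928, minus strand), was at 16678, 18382 and 13508 CPM at 0w and at 2685, 4505 and 2913 CPM at 4w pw1. The highest 4w pw1 library lay well below the lowest 0w library (log2 fold change -2.27, SE 0.29, adjusted p = 0.0034). Dkk3, a secreted protein of the Dickkopf family expressed in the bulge, was at 209, 326 and 277 CPM and then at 20.4, 46.5 and 59.8 CPM (log2 fold change -2.67, SE 0.41, adjusted p = 0.014). These were the called members among 20 bulge genes tested. Values were positive in 4 of the 20, the list median was -0.82, and 9 of the 20 lay below the 0w range in every 4w pw1 library, against 7.79% of all genes.

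The other bulge genes that lay below without passing the test differed in size. Cd34, the surface marker used to sort bulge cells, was at 242, 168 and 94.1 CPM at 0w and at 37.9, 27.2 and 23.5 CPM at 4w pw1 (log2 fold change -2.52, SE 0.63, adjusted p = 0.135). Fgf18, a growth factor made in the resting bulge, was at 31.8, 84.9 and 19.6 CPM and then at 0, 7.12 and 3.36 CPM (log2 fold change -3.52, SE 0.80, adjusted p = 0.103). Grem1, a BMP antagonist, was at 141, 153 and 131 CPM and then at 8.75, 10.5 and 41.0 CPM (log2 fold change -2.81, SE 0.72, adjusted p = 0.145). For none of these genes did a library of one group reach into the range of the other. Lgr5 itself, the gene whose promoter drove the label, was at 499, 494 and 321 CPM at 0w and at 197, 307 and 289 CPM at 4w pw1. It remained well above the floor in every library (log2 fold change -0.73, SE 0.51, adjusted p = 0.653). Tcf7l2 and Tbx1 overlapped between the groups, at 211 to 263 CPM and 116 to 219 CPM at 0w and at 223 to 299.5 CPM and 122 to 180.2 CPM at 4w pw1.

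**Figure D3:**
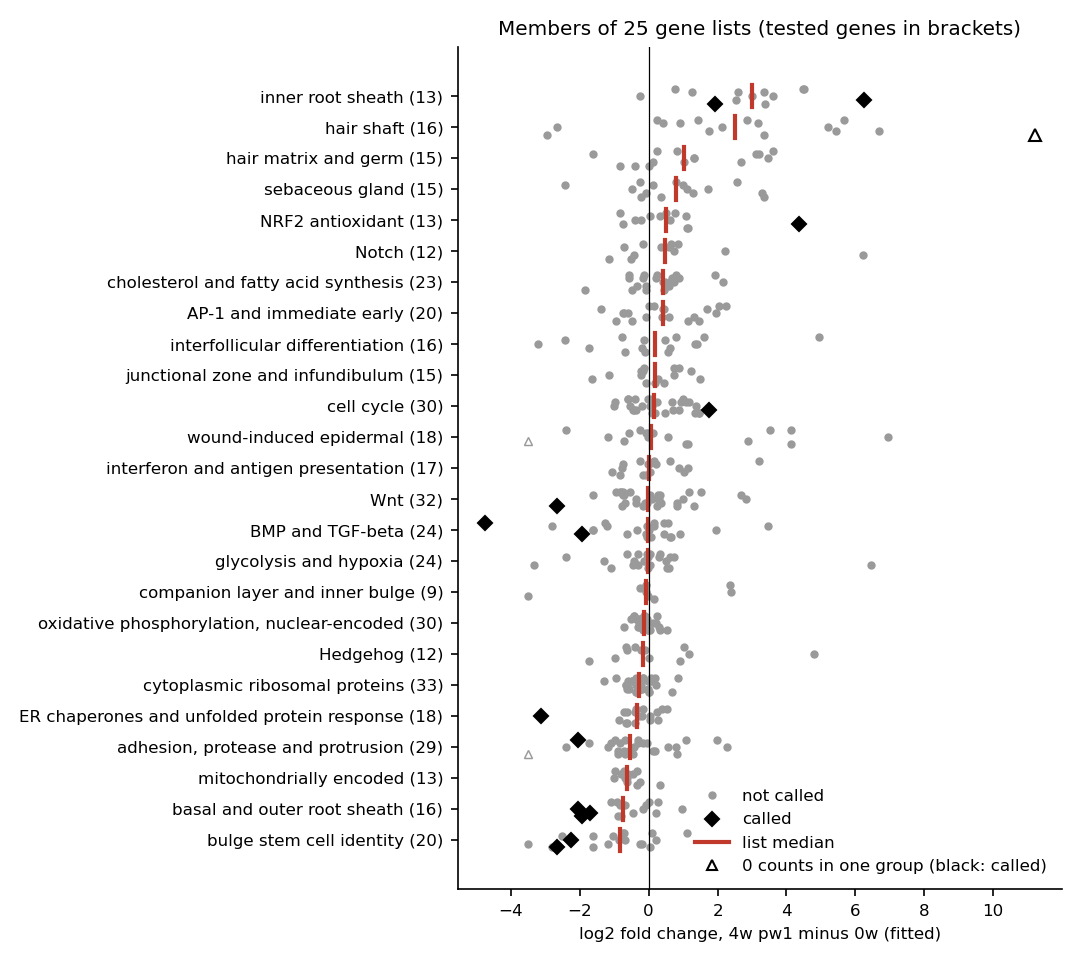
Fitted log2 fold changes (4w pw1 minus 0w) of the tested members of 25 gene lists, ordered by list median (red bar); black symbols passed the test and grey did not. Inner root sheath and hair shaft lists have the highest medians, 3.01 and 2.50, and the bulge list the lowest, -0.82; triangles are genes with no count in one group, whose fitted value depends on the prior count.

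The basal and outer root sheath list had 3 called members of 16 tested, all lower and all parts of the attachment to the basement membrane. Col17a1, the transmembrane collagen of the hemidesmosome, was at 3000, 3069 and 1272 CPM at 0w and at 945, 728 and 568 CPM at 4w pw1 (log2 fold change -1.71, SE 0.32, adjusted p = 0.0438). Lamb3, the beta chain of laminin-332, was at 706, 634 and 366 CPM and then at 101, 150 and 155 CPM (log2 fold change -2.06, SE 0.31, adjusted p = 0.014). Dst, which encodes a plakin that ties keratins to the hemidesmosome, was at 722, 900 and 323 CPM and then at 174, 167 and 171 CPM (log2 fold change -1.93, SE 0.33, adjusted p = 0.0282). In all 3 genes 0w library c was the lowest of its group and still lay above every 4w pw1 library.

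The list median was -0.75, and 9 of its 16 members lay below the 0w range. Among them were the keratin Krt5 and the integrin genes Itga6, Itgb4 and Itgb1. Krt14, the main basal keratin, did not follow, at 5153, 5190 and 4589 CPM at 0w and at 5511, 4748 and 3794 CPM at 4w pw1. Plec, a plakin of the same structure as Dst, was at 494 to 670 CPM and then at 671 to 734 CPM. Krt17, a keratin of the outer root sheath and of activated keratinocytes, was at 3247, 2353 and 1730 CPM and then at 6387, 3767 and 4245 CPM. It lay above the 0w range without passing the test (log2 fold change 0.97, SE 0.40, adjusted p = 0.391). Of the 29 tested genes of the adhesion, protease and protrusion list, Lamb3 alone was called, 10 lay below the 0w range and the median was -0.55.

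Signals of the BMP and TGF-beta family had 2 called members of 24 tested, both lower. Bmp2, a ligand that helps hold bulge cells at rest (chr2:133552159-133562885, plus strand), was at 94.4, 100.4 and 56.5 CPM at 0w and at 0, 1.68 and 7.40 CPM at 4w pw1. One 4w pw1 library had no count and another was near the floor (log2 fold change -4.74, SE 0.72, adjusted p = 0.014). Tgfbi, a secreted matrix protein induced by TGF-beta, was at 832, 655 and 434 CPM and then at 150, 215 and 141 CPM (log2 fold change -1.92, SE 0.31, adjusted p = 0.0193). Id1, a BMP target gene, was at 217, 150 and 114 CPM and then at 66.1, 73.3 and 70.6 CPM, with no overlap (log2 fold change -1.20, SE 0.35, adjusted p = 0.222). The list median was -0.02, and 6 members lay below and 1 above the 0w range. Dkk3 was the called gene among 32 of the Wnt list, whose median was -0.01.

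Other named genes fell as well. Sparc, a collagen-binding matrix protein, was at 768, 947 and 376 CPM at 0w and at 181, 115 and 116 CPM at 4w pw1 (log2 fold change -2.35, SE 0.41, adjusted p = 0.0282). Cst3, the secreted protease inhibitor cystatin C, was at 828, 987 and 998 CPM and then at 204, 235 and 207 CPM (log2 fold change -2.12, SE 0.37, adjusted p = 0.0282). Prss23, a secreted serine protease, was at 376, 226 and 175 CPM and then at 41.8, 18.4 and 26.2 CPM (log2 fold change -3.19, SE 0.55, adjusted p = 0.0282). None of these overlapped between the groups. Ecm1, Cd47 and App, with 0w ranges of 218 to 460, 161 to 287 and 497 to 851 CPM, fell to 41.0 to 98.5, 68.1 to 88.4 and 248 to 280 CPM. Tshz3, a zinc-finger factor, fell from 35.1 to 41.4 CPM to 2.92 to 10.1 CPM (log2 fold change -2.61, adjusted p = 0.0388). Dnajb9, a co-chaperone of the endoplasmic reticulum, fell from 32.4 to 64.5 CPM to 3.77 to 7.78 CPM (log2 fold change -3.13, adjusted p = 0.0333) and was the called member of 18 in its list.

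Col6a1, a collagen VI chain of the fibroblast marker list, was at 374, 253 and 175 CPM at 0w and at 33.1, 35.2 and 18.8 CPM at 4w pw1 (log2 fold change -3.20, SE 0.62, adjusted p = 0.0474). Fbln1 of that list also lay below the 0w range, at 124 to 189.9 CPM and then at 3.89 to 75.8 CPM, without passing the test (adjusted p = 0.311 by edgeR's quasi-likelihood test). Markers such as Col1a1 overlapped between the groups, with Col1a1 at 16.6 to 43.8 CPM and then at 10.5 to 30.1 CPM. Angptl7, named after its values were seen, was at 1615, 1230 and 194 CPM at 0w and at 18.5, 14.7 and 14.1 CPM at 4w pw1 (log2 fold change -6.02, SE 1.17, adjusted p = 0.0465), with 0w library c well below the other two. It lies within Mtor on the opposite strand. Gm28437 and Gm28439, pseudogenes on chromosome 1, fell as well. Their transcripts are 100% identical over their whole length to mt-Co3 and mt-Nd4, so that their reads cannot be told from mitochondrial ones, and 0 of the 13 mitochondrially encoded genes were called by edgeR, DESeq2 or limma-voom (median -0.61, with 4 at an unadjusted p under 0.05).

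Several programmes associated with injury and with other parts of the skin had no called member. Of 18 wound-induced epidermal genes tested, 0 were called by edgeR's quasi-likelihood test, DESeq2 or limma-voom, 2 had an unadjusted p under 0.05, and 0 lay outside the 0w range in all 4w pw1 libraries. The median was 0.06. It was 0.34 with genes at 0 in one group set to their bound and with 2 genes left out that had at most 3 counts in every library of both groups. Krt6a and Krt16, keratins of stressed and healing epidermis, were at 701 to 1852 CPM and 72.8 to 302 CPM at 0w and at 1011 to 1404 CPM and 75.3 to 299.5 CPM at 4w pw1. Interfollicular differentiation (16 tested, median 0.19), junctional zone and infundibulum (15 tested, median 0.17) and sebaceous gland genes (15 tested, median 0.80) had no call either, and 3, 2 and 1 of their genes reached an unadjusted p under 0.05. DESeq2 called 2 and limma-voom 1 in the first list and 0 in the others. Krt79, a keratin of the upper HF, ranged from 40.3 to 1167 CPM at 0w and from 1269 to 1591 CPM at 4w pw1. AP-1 and immediate early genes (20 tested, median 0.41) had 0 calls by edgeR, 5 at an unadjusted p under 0.05 and 1 call by DESeq2 (Jun). In every 4w pw1 library Fos, Jun, Egr1 and Ier2 lay above the 0w range and Myc lay below it. Over all genes tested, 6.62% lay above and 7.79% lay below. Log2 fold changes were negative in 7 of the 20 genes. Lists for glycolysis, oxidative phosphorylation, ribosomal proteins, cholesterol synthesis, interferon, Hedgehog, Notch and the companion layer also had 0 calls by edgeR and limma-voom, with 1 to 4 genes each at an unadjusted p under 0.05 and medians between -0.29 and 0.48. DESeq2 called 1 gene each in the glycolysis list (Car9) and the companion layer list (Fgf18).

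The levels at 4w pw1 were then set beside those of active healing (1w pw1) and of healed skin (8w pw1), in the same fit of 18 libraries. These comparisons share the 4w pw1 libraries with the one above, so that their calls are not independent of it. Between 4w pw1 and 1w pw1, 561 of 18025 genes were called (3.11%), 351 higher (1.95%) and 210 lower (1.17%) at 4w pw1. With DESeq2 size factors these became 414 and 117 and with limma-voom and quality weights 383 and 447. With DESeq2 size factors the median of all genes moved from 0.11 to 0.23 on the log2 scale. Of the 9 genes above 0w, 7 were called higher than at 1w pw1, and of the 19 below 0w, 5 were called lower. Krt28 had a mean of 0.169 ± 0.163 CPM at 1w pw1 (log2 fold change 8.17, SE 0.92, adjusted p = 0.00101), and in this contrast Krt25, Krt27, Krt71 and Krt73 also passed, as did Krt31, Krt35, Dlx3 and Lef1. Krt15 had a mean of 7243 ± 3085 CPM at 1w pw1, between the 0w and the 4w pw1 levels (log2 fold change of 4w pw1 against 1w pw1 -1.10, SE 0.28, adjusted p = 0.0433). Tgfbi had a mean of 974 ± 152 CPM at 1w pw1 (log2 fold change -2.53, SE 0.32, adjusted p = 0.00221). Angptl7 was already low at 1w pw1, with a mean of 15.7 CPM.

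Between 8w pw1 and 4w pw1, 59 genes were called (0.327%), 41 higher (0.227%) and 18 lower (0.0999%) at 8w pw1. Of the 9 above 0w at 4w pw1, 5 were called lower at 8w pw1 (Krt28, Slc7a11, Krt87, Parm1 and Gm49425), and of the 19 below 0w, 5 were called higher (Krt15, Bmp2, Cst3, Tshz3 and Ecm1). Krt28 stood at a mean of 6.74 ± 3.67 CPM at 8w pw1 (log2 fold change -3.23, SE 0.66, adjusted p = 0.045). Slc7a11 stood at 8.63 ± 2.94 CPM (log2 fold change -4.33, SE 0.69, adjusted p = 0.00915). Krt15 stood at 19196 ± 1391 CPM (log2 fold change 2.51, SE 0.29, adjusted p = 0.00179), Bmp2 at 69.1 ± 27.0 CPM and Cst3 at 1330 ± 246 CPM.

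Some bulge and BMP genes that did not pass against 0w passed here, namely Fgf18 (mean of 144 ± 15.98 CPM at 8w pw1, adjusted p = 0.00915), Foxp1 (563 ± 74.1 CPM, adjusted p = 0.00771) and Id1 (500 ± 153 CPM, adjusted p = 0.00406). The 8w pw1 means of Fgf18 and Id1 lay above every 0w library, so that these calls do not measure a return to the 0w level. Dkk3, Prss23 and Lamb3 had 8w pw1 means of 125, 73.8 and 236 CPM, between those of 4w pw1 and 0w, and were not called between 8w pw1 and 4w pw1. At 2w pw1 the means of Krt28 and Krt87 were 14.5 and 4.97 CPM, while Cux1 was already at 396 CPM.

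**Figure D4:**
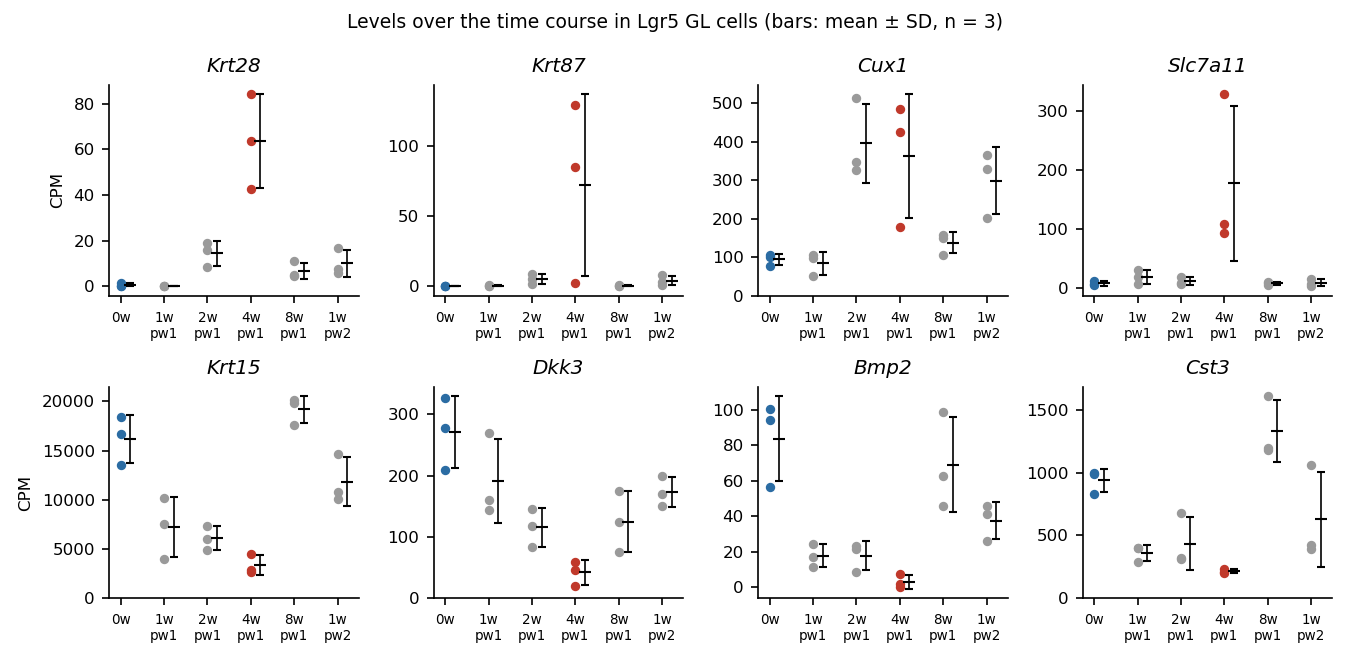
CPM of 8 genes in the 3 Lgr5 GL libraries of each time point (0w blue, 4w pw1 red, others grey), with mean and SD bars. Krt28, Krt87 and Slc7a11 are highest at 4w pw1, whereas Krt15, Dkk3, Bmp2 and Cst3 are lowest there, with 8w pw1 levels of Krt15 and Cst3 at or above the 0w libraries.

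Whether the change at 4w pw1 differed from that of the Lrig1 lineage, which comes from the junctional zone above the bulge, was tested as a difference of differences over all 36 libraries. For this comparison a call required an adjusted p under 0.05 alone, with no threshold on the size of the difference. Its counts are therefore not under the same rule as those above. Of 13980 genes tested, 16 were called (0.114%), 9 with a higher (0.0644%) and 7 with a lower (0.0501%) value in Lgr5 GL cells. Among the 28 genes, 26 were tested, and Krt28, Cst3 and Gm28437 were called. Krt28 was at 24.1, 0 and 12.2 CPM in Lrig1 GL cells at 0w and at 1.49, 4.77 and 8.16 CPM at 4w pw1, so that the groups overlapped there (difference of log2 fold changes 7.61, SE 1.52, adjusted p = 0.0332). Cst3 was at 552, 723 and 571 CPM and then at 959, 812 and 600 CPM in Lrig1 GL cells (difference -2.46, SE 0.44, adjusted p = 0.0223). For Lrig1, which marks the junctional zone, the values had opposite signs in the lineages. In Lgr5 GL cells it was at 119, 77.8 and 38.6 CPM at 0w and at 144, 126 and 165 CPM at 4w pw1, and in Lrig1 GL cells at 224, 244 and 183 CPM and then at 80.7, 93.0 and 46.9 CPM (difference 2.48, SE 0.50, adjusted p = 0.0332). Lrig1 passed the test within neither population alone. For Krt15 the difference between populations was -0.89 (SE 0.67, adjusted p = 0.704), with Lrig1 GL levels of 3863 to 6750 CPM at 0w and of 1205 to 3363 CPM at 4w pw1. Krt87 and Krt35 were removed by the filter on low counts in that fit, at 5.61 CPM or less in each of those 6 libraries.

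**Figure D5:**
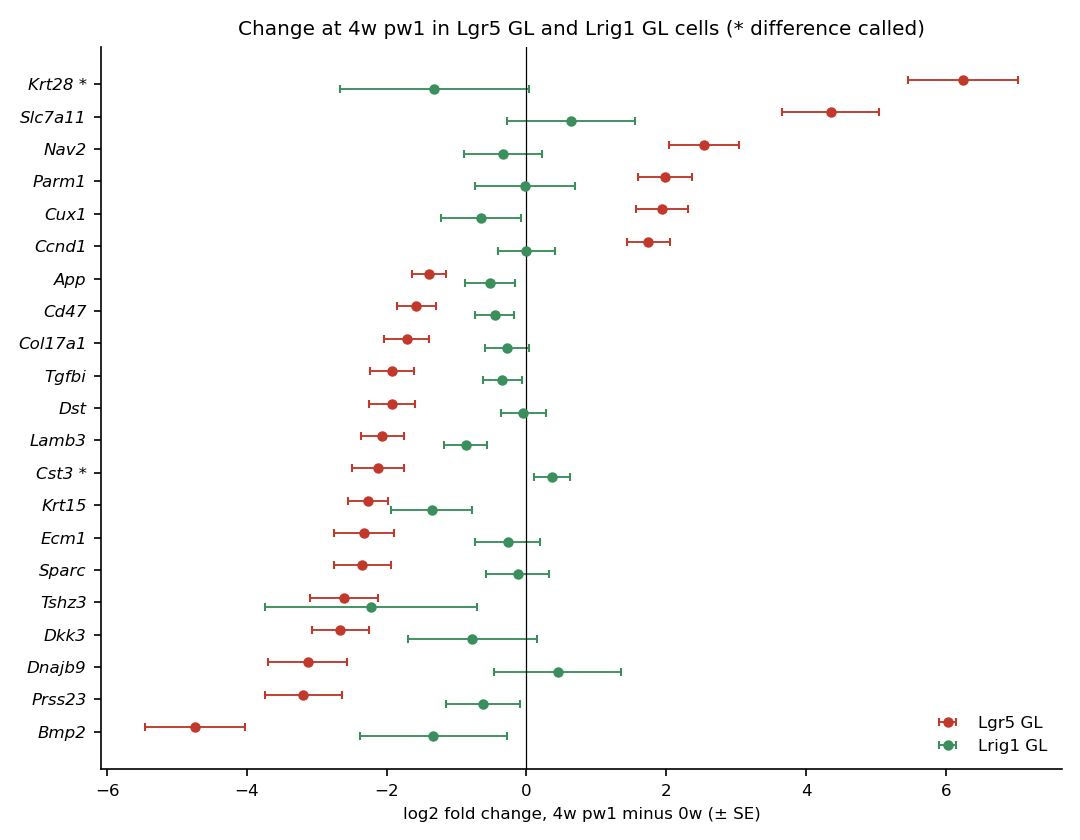
Log2 fold change from 0w to 4w pw1, with its SE, in Lgr5 GL (red) and Lrig1 GL (green) cells for 21 named genes with counts in both groups. Krt28 and Cst3, marked with an asterisk, are those whose difference between populations passed the test.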

How the data were processed

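The study made mini-bulk RNA-seq libraries, each from a small number of sorted tdTomato+ cells. The authors deposited whole-number counts per gene, 1 table for each population, made with Trim Galore, HISAT2 on mm10 and featureCounts with GENCODE annotation, without normalization. The tables hold 22587 genes for Lgr5 GL and 20181 for Lrig1 GL, and coordinates are of GRCm38. Column replicate numbers were used as names only, written a, b and c. For the replicate numbers that 0w and 4w pw1 share, deviations from the group means correlated at -0.101 and -0.121. Pairs across the groups with unlike numbers correlated at -0.0898 to 0.155. So few pairs cannot decide whether the numbers pair the libraries.

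Genes were filtered with filterByExpr (minimum 10 counts), scaled by TMM and tested with edgeR 4.0.16 (R 4.3.3, glmQLFit and glmQLFTest) in 1 fit of the 18 Lgr5 GL libraries, with no covariates, and with Benjamini-Hochberg adjustment over all genes tested. The difference between populations was fitted over all 36 libraries and called by adjusted p alone. The common biological coefficient of variation was 0.662. CPM divides a count by the TMM-scaled library size. The study describes 3 mice for each time point. Intervals and floors cover counting error only, and not the sampling of few cells for each library.

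Named genes were, in each direction, up to 15 called genes with the smallest p, a mean of at least 10 counts, groups that did not overlap and a symbol other than Gm with a number or Rik. This gave 8 higher and 15 lower genes. Called members of each list and its most abundant or informative members were added, and a few more were named after their values were seen: Krt35, Krt25, Krt73, Krt71, Krt31, Dlx3, Ctsc, Fgf18, Cd34, Grem1, Id1, Foxp1, Krt17 and other list members given by level. The comparison, the 25 gene lists and the 9 marker lists were chosen with earlier results of these data known. Immune markers other than Ptprc, Cd74 and Cd68, and 1 fibroblast marker, Dpt, were not analysed here. Promoters were RefSeq entries on GRCm38.p6, matched by symbol for 19 of the 28 genes. Only the edgeR fit behind the main comparison was tested on simulated counts. Alternatives were DESeq2 1.42.0, limma 3.58.1 voom, a likelihood ratio test, other scaling and filters, surrogate variables (sva 3.50.0), a replicate block, removal of Gm12415 or of a GC trend, and leaving out each library.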

Additional observations from a re-analysis of the deposited data

Results flagged for a closer look

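For 16 genes, the shift between unwounded skin and 4w pw1 was not the same in the 2 lineages by edgeR's quasi-likelihood test of the difference itself. Among them, Krt28 had a difference of 7.61 on the log2 scale (Lgr5 GL minus Lrig1 GL), Cst3 a difference of -2.46 and Lrig1 a difference of 2.48. In Lrig1 GL cells Krt28 had no count in 1 of the 3 libraries at 0w. Whether these differences come from cell state or from the makeup of the sorted cells was not tested.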

How the results depend on the processing

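Between 4w pw1 and 0w, 28 genes were called, and all 28 kept their direction wherever they were tested. Because the groups do not overlap in these genes, leaving out a library could hardly reverse a direction. The count was 25 with DESeq2 size factors (24 of them among the 28), 23 with no filter on low counts, 30 with a filter of 1 CPM in 6 libraries, with a robust fit or without Gm12415, 28 with another prior count and 40 with the GC trend removed. It moved to 268 with a likelihood ratio test and 271 with DESeq2, both including all 28, to 81 with limma-voom and 63 with 2 surrogate variables, each including 24, to 6 with the 4 surrogate variables estimated, and to 10 with the 6 libraries of the comparison alone. Leaving out 1 library gave 5 to 28, with 5, 11 and 28 without 0w a, b and c and 6, 8 and 7 without 4w pw1 a, b and c. Krt28 lost its call with the estimated surrogate variables and Krt15 with the 6 libraries alone (adjusted p of 0.0997 and 0.0511), and neither lost it in any other fit. The causes were not tested.

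Whether the replicate number pairs these libraries could not be decided. With it as a block, the calls were 8 between 4w pw1 and 0w, 160 between 4w pw1 and 1w pw1 and 36 between 8w pw1 and 4w pw1. For the difference between populations there were 0 calls, and 1116 genes had an unadjusted p under 0.05.

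Between 4w pw1 and 1w pw1 the 561 calls became 1823 and 1862 with the likelihood ratio test and DESeq2, 361 with no filter, and 32 to 787 on leaving out 1 library, with 32 without 4w pw1 c, 113 without 4w pw1 b, and 148 and 281 without 1w pw1 a and c. Between 8w pw1 and 4w pw1 the 59 calls became 267, 281 and 299 with the likelihood ratio test, DESeq2 and limma-voom, and 8 to 43 on leaving out 1 library, with 8 and 21 without 4w pw1 c and a, and 28, 19 and 21 without 8w pw1 a, b and c. For the difference between populations the 16 calls became 134 and 158 with the likelihood ratio test and DESeq2, 2 with limma-voom, 6 with no filter, and 1 to 61 on leaving out 1 library. These were 61 without 0w c, and 1, 5 and 3 without 4w pw1 a, b and c of Lrig1 GL, and 10 and 2 without 0w b and c and 3 without any one 4w pw1 library of Lgr5 GL.

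A level of 3 counts is worth 0.623 to 1.03 CPM at 0w and 1.26 to 2.92 CPM at 4w pw1, and levels below it were not detectable at this depth.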
